A study of Mus musculus with 6 samples.

Results

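The comparison set 2 partially reprogrammed mouse cell lines, pre3 and pre2-2, against each other across all expressed genes. All 6 samples of the series entered it: 3 RNA sequencing libraries of pre3 and 3 of pre2-2, matched by treatment. In each line 1 library came from untransfected cells (NT), 1 from cells given a control siRNA (NC) and 1 from cells given an siRNA against Tet1 (siTet1, written as Tet siRNA in the treatment field). Both lines carried the OG2 transgene, a green fluorescent protein reporter driven by the Pou5f1 promoter, in a background of 1/2 129SVJ, 3/8 C57B6 and 1/8 CBA, and were at passage 10. The series text gives culture in embryonic stem cell medium with LIF, a change to the same medium with 50 µg/ml vitamin C at 16 h, and RNA extraction 32 h after that, whereas the sample label gives 36 h of vitamin C. All groups, the untransfected ones included, received vitamin C. The sample labels name OG2 embryonic fibroblasts as the source, and the series text names the cells as pre-iPSCs. Each line is a single line, so the comparison describes these 2 lines and not a class of lines, and no label says that the 3 libraries of a line came from separate cultures. With treatment as a block, p-values rest on how far line differences varied between the 3 treatment pairs. That spread may be partly technical. The model shared it across genes, with 23.1 prior against 2 residual degrees of freedom. The p of a gene therefore draws mostly on the spread of other genes.

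Reprogramming with Pou5f1, Sox2, Klf4 and Myc takes fibroblasts through a loss of mesenchymal genes and a gain of epithelial genes before the resident pluripotency network switches on. Pre-iPSCs are clones that stopped on this path: they grow like stem cells and have silenced part of the fibroblast program, but lack late pluripotency genes such as Nanog. Lines of this kind can stop at different points, and vitamin C, a cofactor of Tet and histone demethylases, is known to move them on.

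Library totals ran from 1868640 to 2582803 estimated counts, with 13478 to 14107 genes carrying a count. The limit that a count of 0 allows, 3 counts, equalled 1.17 to 1.60 CPM (TMM-scaled read counts relative to library size). Libraries correlated at 0.953 to 0.975 within a line and at 0.884 to 0.938 between lines (log2 CPM). Along the leading principal component (62.5% of variance) the pre3 libraries sat at 26.03 to 43.35 and the pre2-2 libraries at -41.48, -41.16 and, for the untransfected one, -18.84, so that library stood apart from the others of its line. Tet1 itself measured 250, 246 and 154 CPM in the NT, NC and siTet1 libraries of pre2-2 and 205, 251 and 159 CPM in those of pre3, lowest in the siTet1 library of each line. The summed CPM of 22 haematopoietic markers spanned 1308 to 1485 in pre2-2 and 1423 to 1497 in pre3, with the leukocyte marker Ptprc at 2.81 CPM or less in every library. That of 18 muscle markers was 16.3 to 59.0 in pre2-2 and 17.6 to 26.2 in pre3.

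Pre3 differed from pre2-2 in 3333 of 11042 genes tested (edgeR quasi-likelihood test, treatment as a block, Benjamini-Hochberg adjusted p under 0.05, two-sided). Of these, 1586 genes (14.4%) were higher in pre3 and 1747 (15.8%) were lower. Among genes that also differed at least 2-fold, 374 (3.39%) were higher and 761 (6.89%) were lower. All pre3 libraries lay above all pre2-2 libraries in 2074 genes (18.8%) and below them in 2004 (18.1%). These percentages are the background against which the counts of each gene group are given. Without the block for treatment, genes called higher in pre3 numbered 969 and genes called lower in pre3 numbered 1091. The difference in the untransfected pair correlated across genes with that in the control siRNA pair at Pearson's r = 0.702 and with that in the siTet1 pair at 0.665, and the latter 2 pairs correlated at 0.771. Genes are not independent replicates, so these values are a description.

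**Figure D1:**
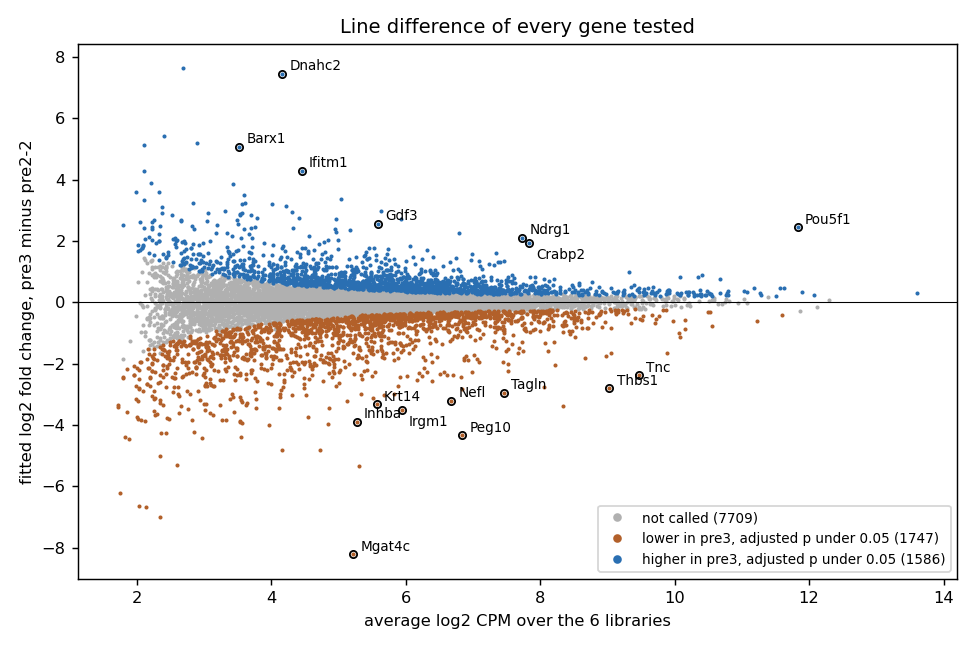
Fitted log2 fold change of pre3 over pre2-2 (y axis) against average log2 CPM over the 6 libraries (x axis) for each of the 11042 genes tested, with 1586 genes called higher in blue and 1747 called lower in brown. Pou5f1 stands toward the right at a log2 fold change of 2.45, and 761 genes lie at least 2-fold below zero against 374 above it.

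The reprogramming factor genes split: Pou5f1 was much higher in pre3, Myc was higher by less than 2-fold, Klf4 slightly so, and Sox2 did not pass the test. Pou5f1, the transcription factor that anchors the pluripotent state, measured 1209, 1042 and 1146 CPM in the NT, NC and siTet1 libraries of pre2-2 and 6620, 5794 and 6093 CPM in those of pre3. The lines did not overlap and the difference was 5.45-fold (log2 2.45 ± 0.06 SE, adjusted p = 8.11e-20). Ranked by TPM, a length-corrected share of transcripts, Pou5f1 was the 2nd most abundant gene in each pre3 library and ranked from 82 to 95 in pre2-2. Myc, a driver of growth and biosynthesis, measured 990, 862 and 981 CPM in pre2-2 and 1865, 1690 and 1738 CPM in pre3. That was a log2 difference of 0.90 ± 0.07 (adjusted p = 4.29e-10), again without overlap. Klf4 differed by 0.22 ± 0.07 on the log2 scale (adjusted p = 0.0148), and Sox2 by -0.18 ± 0.09 (adjusted p = 0.127), its values overlapping between the lines. Klf4 lost its call without the NC or the siTet1 library of either line (highest adjusted p = 0.285). Counts by gene symbol do not separate transcripts of the resident gene from those of an introduced reprogramming copy, and the labels do not state which copies the lines carry.

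The higher Pou5f1 of pre3 was not matched across the pluripotency network. Of 39 network genes in the files 27 were tested, and 7 were higher and 12 lower in pre3, with a median log2 difference of -0.22 against 0.0024 over all genes tested. Without the block, 4 were higher and 5 lower, and without the NC or the siTet1 library of either line 5 or 6 were higher and 7 lower. Gdf3, a TGF-beta family ligand of pluripotent cells, measured 17.9, 9.62 and 14.5 CPM in pre2-2 and 84.6, 75.2 and 90.4 CPM in pre3, a log2 difference of 2.56 ± 0.17 (adjusted p = 1.73e-11). Dppa5a, an RNA-binding protein of embryonic stem cells, measured 11.7, 11.6 and 37.0 CPM in pre2-2 and 41.5, 40.0 and 123 CPM in pre3 (log2 difference 1.77 ± 0.17). Each pre3 library exceeded all pre2-2 libraries for both genes, and within each line Dppa5a was highest in the siTet1 library. Dppa5a shares 12.3% of its 50-base words (stretches of transcript sequence) with Pigp, so part of its reads could have been assigned between them. Tcfcp2l1 (0.71 ± 0.22), Fbxo15 (0.50 ± 0.13), Tdh (0.48 ± 0.10), Klf5 (0.63 ± 0.18) and Tdgf1 (0.44 ± 0.09), all markers of mouse embryonic stem cells, were the other genes that were higher. Klf5 and Tdgf1 overlapped between lines. Leaving out 1 library ended the call of Tcfcp2l1 (NT or siTet1, highest adjusted p = 0.1), Fbxo15 (NC, 0.0931) and Klf5 (NC, 0.164).

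Network genes lower in pre3 included the stem cell factors Sall4, Fgf4, Nr5a2, Utf1 and Lin28b. The 3 members lower by at least 2-fold were Utf1, Jam2 and Spp1, and Rest was lower too. Spp1 also stands in the fat, cartilage and bone list, so not every member counted is particular to stem cells. Fgf4, the growth factor that acts back on stem cells through ERK, measured 128, 130 and 126 CPM in pre2-2 and 68.2, 67.7 and 62.2 CPM in pre3 (log2 difference -0.95 ± 0.12, adjusted p = 7.58e-07). Sall4, a zinc finger partner of Pou5f1, measured 79.3, 69.9 and 58.6 CPM in pre2-2 and 33.9, 36.8 and 41.0 CPM in pre3 (-0.89 ± 0.15). The 3 libraries of each line fell into separate ranges for both genes. Nr5a2 differed by -0.87 ± 0.21, Utf1 by -1.33 ± 0.38 and Lin28b by -0.92 ± 0.19, the Utf1 call ending without the NC or siTet1 library of either line (highest adjusted p = 0.0875). Of the network genes, Nanog, Esrrb and Lin28a were low in both lines. Nanog reached at most 3.54 CPM, Esrrb 1.41 CPM and Lin28a 1.01 CPM, and these 3 were not tested. Among primed epiblast genes, 4 of 6 tested were lower and 1 was higher, and leaving out any 1 library reduced the lower ones to 2. Nodal, the ligand that maintains the epiblast, fell from 12.4, 11.1 and 11.7 CPM in pre2-2 to 2.05, 3.20 and 3.19 CPM in pre3 (-2.05 ± 0.40, adjusted p = 0.000294). Otx2, a transcription factor of the primed state, was higher in pre3 by 1.82 ± 0.29, and Fgf5 had no count in any library.

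**Figure D2:**
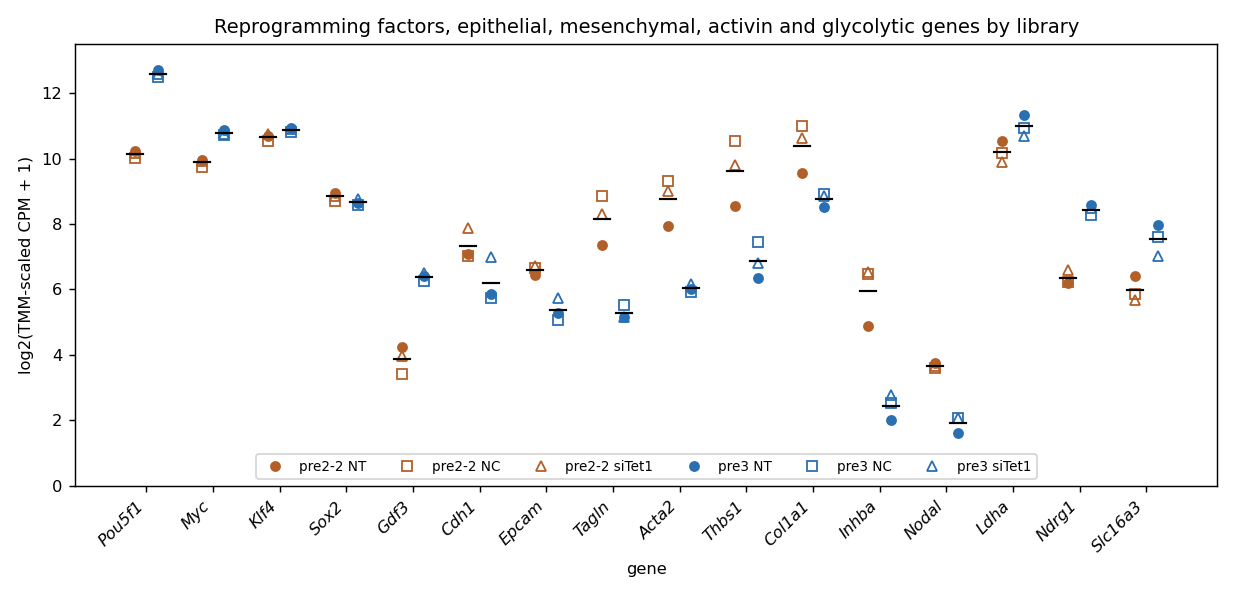
Level of 16 genes in each library as log2(TMM-scaled CPM + 1), with pre2-2 in brown, pre3 in blue, circles for NT, squares for NC, triangles for siTet1 and a bar at the mean of each line (n = 3). Pou5f1, Myc, Gdf3, Ndrg1 and Slc16a3 lie higher in every pre3 library, Tagln, Acta2, Thbs1, Col1a1, Inhba and Nodal lie lower, and Sox2 overlaps.

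Epithelial genes went both ways. Of 26 tested, 6 were higher and 12 lower in pre3 (median log2 difference -0.38), and without the NC library of either line 4 were higher and 6 lower. Cdh1, which encodes E-cadherin of epithelial junctions, measured 135, 129 and 236 CPM in pre2-2 and 56.9, 52.8 and 127 CPM in pre3. The highest pre3 library lay just under the lowest pre2-2 library, and the log2 difference was -1.11 ± 0.12 (adjusted p = 6.50e-08). Epcam, an epithelial adhesion molecule, measured 86.3, 99.2 and 104 CPM in pre2-2 and 38.0, 32.5 and 52.7 CPM in pre3 (-1.24 ± 0.14, adjusted p = 2.03e-07), also without overlap. The intermediate filament gene Krt8 (-1.47 ± 0.22), the tight junction gene Ocln (-1.32 ± 0.36) and the polarity gene Crb3 (-1.99 ± 0.57) were lower as well, though Crb3 lost its call without the NC or siTet1 library of either line (highest adjusted p = 0.0714). The epithelial transcription factors Grhl3 (2.03 ± 0.19) and Elf3 (2.16 ± 0.34), the tight junction gene Cldn3 (2.84 ± 0.55) and the splicing regulator Esrp2 (0.83 ± 0.21) were higher. The Cldn3 difference was 2.13 without the NT library of pre2-2 and 3.46 without its NC library. Ehf, an epithelial ETS factor outside the list, measured 54.0, 23.8 and 38.4 CPM in pre2-2 and 194, 178 and 185 CPM in pre3, a log2 difference of 2.26 ± 0.15.

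Genes of basal keratinocytes were lower in pre3: 8 of 9 tested were called lower, all 8 by at least 2-fold and without overlap, with a median log2 difference of -2.16. Krt14, the keratin of the basal layer, measured 62.2, 67.8 and 117 CPM in pre2-2 and 6.16, 4.80 and 13.8 CPM in pre3 (-3.32 ± 0.20, adjusted p = 1.74e-12). Sfn, which encodes stratifin, measured 337, 424 and 667 CPM in pre2-2 and 92.3, 91.2 and 164 CPM in pre3 (-2.04 ± 0.10). Within each line the siTet1 library was highest for both genes, and every pre3 library was under every pre2-2 library. The desmosomal cadherin Dsg3 differed by -3.90 ± 0.41, the hemidesmosome collagen Col17a1 by -2.91 ± 0.34, Krt17 by -2.16 ± 0.15 and the laminin chain Lamb3 by -3.84 ± 0.56. Trp63, the master regulator of this cell type, was at 1.17 CPM or less in every library and was not tested. The summed CPM of 18 keratinocyte markers spanned 1097 to 1717 in pre2-2 and 494 to 650 in pre3, and its part in the epithelial differences was not tested. Krt14 shares 13.9% of its 50-base words with other listed genes, mostly Krt16, so part of its reads could have been assigned between them.

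Mesenchymal, matrix and contractile genes were lower in pre3. Of 30 genes of the mesenchymal transition, all tested, 25 were lower and 1 higher, 16 of the 25 by at least 2-fold (median log2 difference -1.23). Of 24 fibroblast and matrix genes tested, 21 were lower and 1 higher, 13 by at least 2-fold (median -1.41). All 15 contractile genes tested were lower, 12 by at least 2-fold, and in all 15 the pre3 libraries lay under the pre2-2 libraries (median -1.67). The differences were smaller in the untransfected pair, with medians of -0.63, -0.79 and -0.94 for these 3 lists against -1.22, -1.58 and -1.88 in the NC pair and -1.26, -1.32 and -1.74 in the siTet1 pair. In the 4 transfected libraries alone 27, 21 and 15 members of the 3 lists were lower.

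Among the regulators of the mesenchymal state, Zeb2 (-2.12 ± 0.26), Prrx1 (-1.83 ± 0.17), Twist1 (-1.65 ± 0.35), Twist2 (-1.51 ± 0.35), Snai2 (-1.45 ± 0.40) and Snai1 (-0.87 ± 0.27) were lower in pre3. Twist1 overlapped between lines, Snai2 lost its call without the siTet1 library of either line (highest adjusted p = 0.127), and Snai1 without the NC or siTet1 library (0.231). Zeb1 measured 33.4, 43.5 and 59.5 CPM in pre2-2 and 50.3, 49.6 and 45.2 CPM in pre3 and did not pass the test (0.11 ± 0.17, adjusted p = 0.658). Thbs1, encoding thrombospondin 1, measured 373, 1499 and 891 CPM in pre2-2 and 80.5, 173 and 112 CPM in pre3 (-2.81 ± 0.12, adjusted p = 7.53e-15). Tnc, encoding tenascin C, measured 631, 1072 and 1870 CPM in pre2-2 and 149, 187 and 326 CPM in pre3 (-2.38 ± 0.10, adjusted p = 1.63e-15). The fibronectin gene Fn1 (-0.29 ± 0.12) did not pass, and its pre3 values of 3220, 2871 and 3558 CPM fell among the pre2-2 values of 2415, 3974 and 6240 CPM. Mmp2, a matrix metalloproteinase, was the 1 member of the list that was higher (0.53 ± 0.13), a call that ended without the NT library of either line (highest adjusted p = 0.0615).

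Of the matrix genes, Col1a1 measured 752, 2055 and 1569 CPM in pre2-2 and 367, 480 and 463 CPM in pre3 (-1.64 ± 0.12, adjusted p = 6.65e-11), and its partner chain Col1a2 differed by -1.65 ± 0.12. Lox, which cross-links collagen, differed by -2.35 ± 0.18, the small proteoglycan gene Bgn by -1.81 ± 0.12 and the fibrillin gene Fbn1 by -1.50 ± 0.13. Col3a1 (-0.40 ± 0.12) and Col6a2 (-0.43 ± 0.12) were called lower although their libraries overlapped between the lines. These calls ended without the NC library (Col3a1, highest adjusted p = 0.335) or the siTet1 library (Col6a2, 0.0808) of either line. The summed CPM of 31 fibroblast markers, which these genes belong to, spanned 5843 to 10460 in pre2-2 and 4390 to 4978 in pre3. In bulk libraries fewer cells of a kind and less RNA per cell cannot be told apart. Tpm1 (-1.32 ± 0.11) and Actn1 (-1.67 ± 0.13), which bundle and decorate actin filaments, followed the same direction as the smooth muscle genes. Tagln, an actin-binding protein of smooth muscle and activated fibroblasts, measured 164, 458 and 313 CPM in pre2-2 and 34.4, 44.8 and 35.1 CPM in pre3 (-2.96 ± 0.15, adjusted p = 1.11e-13). Acta2, smooth muscle actin, measured 242, 635 and 517 CPM in pre2-2 and 63.6, 60.2 and 70.2 CPM in pre3 (-2.75 ± 0.16, adjusted p = 1.59e-12). In both genes the untransfected pre2-2 library was the lowest of its line and still above all pre3 libraries.

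Contractile genes are textbook targets of serum response factor, which binds the CArG box. In the RefSeq promoter table (build GRCm38.p6), 12 of the 15 tested members had a promoter, and in 3 of them (25%), Cnn2, Myl9 and Vcl, the 250 bases before an annotated start held a CArG box on either strand. It was found before 1.47% of the 7968 tested genes with a promoter and in 1.47% of all 32851 promoters. The windows of the 2 called members with the smallest p are shown with the box in capitals, because they place the motif in genes that differ between the lines. Myl9, a myosin light chain, measured 36.5, 94.2 and 75.9 CPM in pre2-2 and 7.18, 10.1 and 7.98 CPM in pre3 (-2.99 ± 0.21), and Cnn2, calponin 2, measured 115, 201 and 223 CPM in pre2-2 and 42.1, 49.6 and 59.6 CPM in pre3 (-1.80 ± 0.13). The Myl9 window is chr2:156775258-156775358 on the plus strand, 206 to 106 bases before the start, and the Cnn2 window is chr10:79988499-79988599 on the plus strand, 101 to 1 bases before it. A match is a description of the letters and not a bound site.
Myl9: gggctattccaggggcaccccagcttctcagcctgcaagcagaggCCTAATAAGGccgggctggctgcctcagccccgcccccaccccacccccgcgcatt
Cnn2: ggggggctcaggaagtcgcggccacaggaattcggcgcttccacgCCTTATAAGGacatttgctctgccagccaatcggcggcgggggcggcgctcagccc

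Of 15 targets of YAP and serum response factor, 12 were lower and 1, Srf itself (0.32 ± 0.11), was higher. Ankrd1, a cardiac ankyrin repeat gene induced by YAP, measured 12.1, 48.6 and 27.6 CPM in pre2-2 and 2.57, 4.80 and 4.26 CPM in pre3 (-2.87 ± 0.29). The direct YAP target Ctgf differed by -0.76 ± 0.12 and Cyr61 by -0.30 ± 0.11, the latter with overlapping libraries. Cyr61 (highest adjusted p = 0.542) lost its call without the NC or siTet1 library of either line, and Srf (0.103) without any 1 library. Of 28 basement membrane and integrin genes, 17 were lower (60.7%, background 15.8%) and 4 higher (background 14.4%), with 2 higher without the block. The fibronectin receptor chain Itga5 (-1.36 ± 0.13) and the laminin linker Nid1 (-1.04 ± 0.11) were lower, whereas Nid2 (0.68 ± 0.11) and the laminin chain Lamc1 (0.56 ± 0.09) were higher. Of 15 cadherin and protocadherin genes tested, 12 were lower and none higher, led by Pcdh19 (-2.72 ± 0.21) and including both Cdh1 and the mesenchymal Cdh11 (-0.95 ± 0.11).

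Genes of TGF-beta, activin, Nodal and BMP signalling were lower in pre3 in 20 of 38 tested and higher in 1, with 16 of the 20 lower by at least 2-fold (median -0.71, and -0.28, -0.92 and -0.83 in the NT, NC and siTet1 pairs). This family of ligands acts through Smad proteins, keeps fibroblasts mesenchymal and also acts in pluripotent cells. Among ligands, Inhba, the activin A subunit, measured 28.4, 88.1 and 92.3 CPM in pre2-2 and 3.08, 4.80 and 5.85 CPM in pre3 (-3.89 ± 0.23, adjusted p = 1.91e-12). Tgfb1 (-1.76 ± 0.25), Tgfb2 (-1.56 ± 0.32) and Inhbb (-0.81 ± 0.20) were lower too. Bmp7 was the exception, at 1.17, 4.05 and 4.22 CPM in pre2-2 and 27.7, 14.4 and 24.5 CPM in pre3 (2.86 ± 0.36, adjusted p = 1.07e-06), and its difference was 2.22 without the NT library of pre2-2. The secreted activin antagonist Fst measured 25.7, 57.7 and 38.4 CPM in pre2-2 and 2.57, 4.27 and 2.13 CPM in pre3 (-3.73 ± 0.27). For these ligands and Fst no pre3 library reached the lowest pre2-2 library, except that Inhbb overlapped, and for Bmp7 the order was the opposite. Of receptors, Acvr1 (-0.99 ± 0.14) and Tgfbr2 (-0.46 ± 0.12) were lower. Of targets, Id1 (-1.28 ± 0.11), Id2 (-1.06 ± 0.21), Id3 (-1.36 ± 0.15) and the feedback inhibitor Smad7 (-0.92 ± 0.21) were lower, Smad7 with overlap. Tgfbr2 also overlapped, and the calls of Inhbb (highest adjusted p = 0.0582) and Tgfbr2 (0.146) ended without the siTet1 library of either line.

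**Figure D3:**
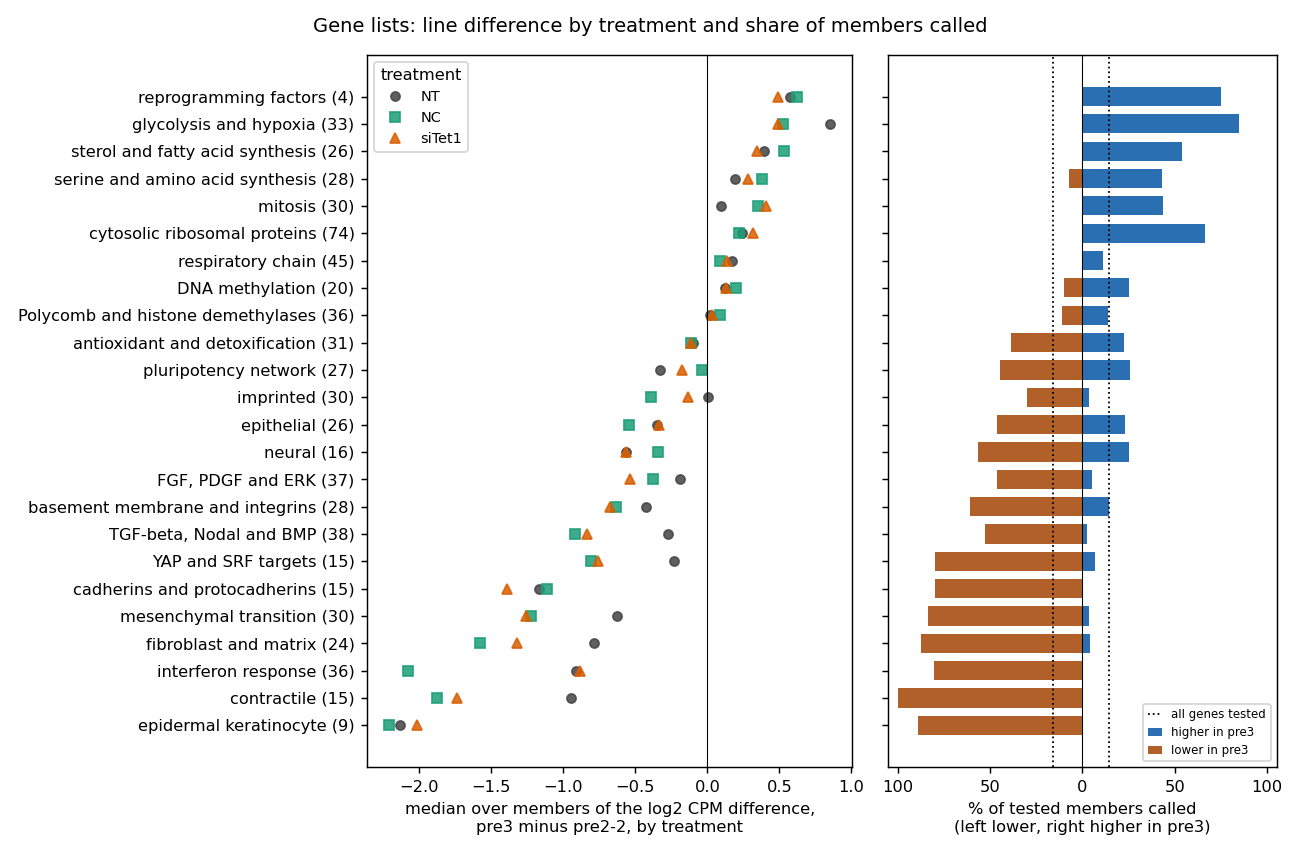
Left, the median over tested members of the log2 CPM difference, pre3 minus pre2-2, for 24 gene lists in the NT (circle), NC (square) and siTet1 (triangle) pairs, with the number of members tested in brackets. Right, the percentage of tested members called lower (brown, to the left) and higher (blue, to the right), with dotted lines at 15.8% and 14.4%, the shares over all genes tested. The keratinocyte, contractile, matrix, mesenchymal and interferon lists lie left of zero in all 3 pairs, the contractile, matrix and mesenchymal ones less so in NT, and glycolysis lies right of zero in all 3.

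Of 37 FGF, PDGF and ERK pathway genes tested, 17 were lower, 2 higher and 18 not called, the receptors Pdgfra (-1.76 ± 0.27), Pdgfrb (-1.44 ± 0.20), Met (-1.24 ± 0.27) and Egfr (-0.77 ± 0.14) among the lower ones. The EGF-family ligands Hbegf (-1.81 ± 0.20) and Ereg (-2.04 ± 0.23) and the IGF-binding proteins Igfbp7 (-2.41 ± 0.20) and Igfbp4 (-1.95 ± 0.21) were lower, and Igfbp2 was higher by 1.74 ± 0.18. The 3 libraries of each line were separate for Igfbp2 and overlapped for Pdgfra. Of 15 genes of LIF and Stat3 signalling, which supports mouse stem cells, 5 were lower and 4 higher, but 2 were higher without the block and 1 without the NC library of either line. The feedback inhibitor Socs3 measured 135, 118 and 180 CPM in pre2-2 and 70.8, 61.3 and 93.6 CPM in pre3 (-0.94 ± 0.11), and Stat3 did not pass the test (0.08 ± 0.10).

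Interferon-response genes were lower in pre3 in 29 of 36 tested and higher in none, 22 by at least 2-fold (median -1.51). These genes are switched on through Stat2 and Irf9 when cells sense viral or foreign nucleic acid, and they varied with treatment in both lines. The median of the 29 genes was 9.72, 58.7 and 16.9 CPM in the NT, NC and siTet1 libraries of pre2-2 and 2.05, 10.1 and 5.85 CPM in those of pre3. In 28 of the 29 genes the NC library exceeded the NT library in pre2-2, and in 28 it did so in pre3. With this spread the 2 lines did not overlap in 10 of the 36 genes, above the background share of 18.1% but fewer than the 29 called. Without the block for treatment 11 were called lower. The median difference was -0.91 in the NT pair, -2.08 in the NC pair and -0.88 in the siTet1 pair. Isg15, a ubiquitin-like antiviral protein, measured 2.72, 74.4 and 20.6 CPM in pre2-2 and 0, 12.8 and 5.32 CPM in pre3 (-2.40 ± 0.28, adjusted p = 3.14e-07), so the pre2-2 NT library lay below 2 of the pre3 libraries.

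Immunity-related GTPases, which act on the vacuoles of intracellular pathogens, were lower in pre3 in the untransfected pair too. Irgm1 measured 81.6, 198 and 48.3 CPM in pre2-2 and 3.59, 18.7 and 6.92 CPM in pre3 (-3.50 ± 0.20, adjusted p = 1.27e-12). Gbp2, a guanylate-binding protein, measured 27.2, 24.3 and 7.03 CPM in pre2-2 and 1.54, 3.20 and 1.06 CPM in pre3 (-3.30 ± 0.38). The 3 libraries of each line were separate for both. Irgm2 differed by -3.87 ± 0.46, and by -4.54 without the siTet1 library of pre2-2, while Iigp1 had 50 counts over the pre2-2 libraries and 1 over those of pre3 (ratio 42.9, exact 95% counting interval 7.35 to 1730). Tgtp1 shares 81.2% of its 50-base words with other listed genes, mainly Tgtp2, so no value is given for it. Ifitm1, an interferon-induced membrane protein also found in stem and germ cells and outside the list, went the other way: it measured 1.94, 1.52 and 2.81 CPM in pre2-2 and 35.4, 28.8 and 62.2 CPM in pre3 (4.28 ± 0.28, adjusted p = 1.04e-11).

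The interferon-stimulated response element has the core GAAANNGAAA. It was searched on both strands of the 250 bases before annotated starts, and 13 of 28 tested members with a promoter held it (46.4%), against 3.01% of tested genes with a promoter and 2.98% of all promoters. Irgm1 and Gbp2 had the smallest p among called members that held it, and their windows show it in capitals, overlapping copies included. The Irgm1 window is chr11:48871421-48871521 on the minus strand, 101 to 1 bases before the start. The Gbp2 window is chr3:142620559-142620659 on the plus strand, 104 to 4 bases before it, where the word reads on the opposite strand.
Irgm1: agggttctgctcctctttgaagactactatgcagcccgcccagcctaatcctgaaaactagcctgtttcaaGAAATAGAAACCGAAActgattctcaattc
Gbp2: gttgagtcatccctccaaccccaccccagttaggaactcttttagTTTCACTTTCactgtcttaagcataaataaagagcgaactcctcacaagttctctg

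**Figure D4:**
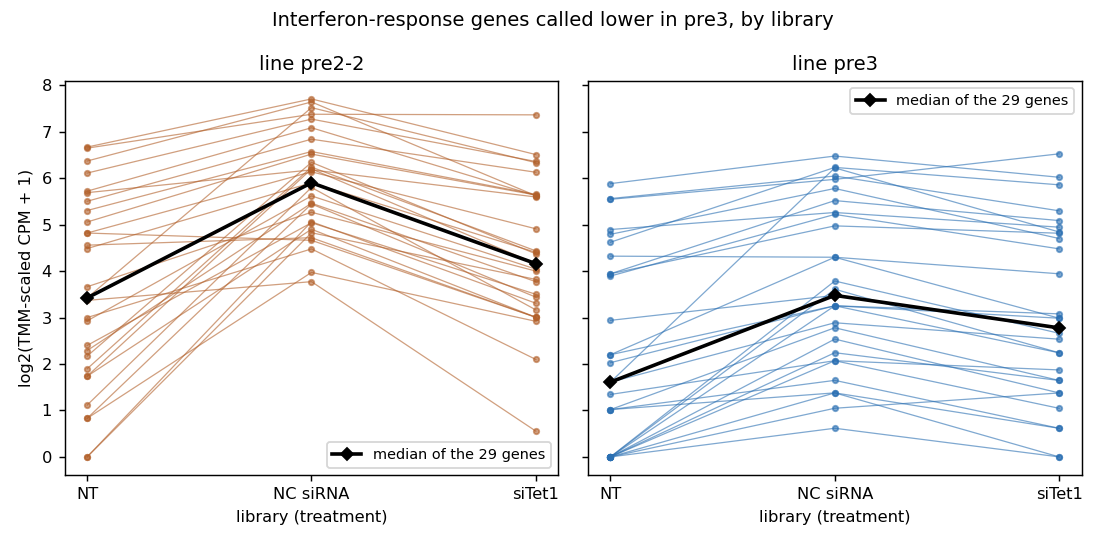
Each thin line is 1 of the 29 interferon-response genes called lower in pre3, as log2(TMM-scaled CPM + 1) in the NT, NC and siTet1 libraries of pre2-2 (left) and pre3 (right), and the black line is their median. The medians run 3.42, 5.9 and 4.16 in pre2-2 and 1.61, 3.48 and 2.78 in pre3, so the NC library is the highest of each line.

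Inflammatory and antigen presentation genes were lower in smaller numbers. Of 20 inflammation genes tested, 11 were lower and 2 higher, 10 by at least 2-fold. Csf1, the macrophage growth factor, measured 78.9, 206 and 139 CPM in pre2-2 and 17.4, 25.6 and 26.6 CPM in pre3 (-2.56 ± 0.16, adjusted p = 2.93e-12), without overlap. The cytokine gene Il11 (-3.15 ± 0.34), the adhesion genes Icam1 (-2.46 ± 0.35, and -3.27 without the NC library of pre2-2) and Vcam1 (-2.20 ± 0.32), the chemokine gene Ccl2 (-1.93 ± 0.25) and the prostaglandin synthase gene Ptgs2 (-1.69 ± 0.17) were lower. Lif (0.66 ± 0.19) and Nfkbia, the inhibitor of NF-kappaB (0.52 ± 0.14), were higher, the Lif call ending without the NC library of either line or the siTet1 library of pre3 (highest adjusted p = 0.139). Of 15 antigen presentation genes 5 were lower, against 3 without the block and 1 without the NC library of either line. B2m, the light chain of class I molecules, measured 66.1, 251 and 162 CPM in pre2-2 and 56.4, 76.8 and 69.2 CPM in pre3 (-1.12 ± 0.17), its pre2-2 NT value falling among those of pre3, and the heavy chains H2-K1 (-0.01 ± 0.17) and H2-D1 (-0.23 ± 0.20) did not pass.

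Glycolysis and hypoxia genes were higher in pre3. Of 33 tested, 28 were higher and none lower, 8 by at least 2-fold, with a median log2 difference of 0.66 (0.85, 0.53 and 0.49 in the NT, NC and siTet1 pairs). In 23 of the 33 all pre3 libraries lay above all pre2-2 libraries, against 18.8% of all genes. Without the untransfected pair 25 were higher and 1 lower. Glycolysis converts glucose to pyruvate, and stem cells and hypoxic cells, the latter through Hif1a, favour it. Along the pathway, the glucose transporter Slc2a1 (0.44 ± 0.10), hexokinases Hk1 (0.51 ± 0.12) and Hk2 (0.38 ± 0.10), phosphofructokinases Pfkl (0.75 ± 0.10) and Pfkp (0.74 ± 0.11), aldolases Aldoa (0.49 ± 0.09) and Aldoc (1.63 ± 0.20), triose phosphate isomerase Tpi1 (1.00 ± 0.08) and Pgk1 (0.84 ± 0.08) were higher. Gapdh and Eno1 were higher by 0.32 ± 0.06 and 0.37 ± 0.07, with overlapping libraries, as did those of Slc2a1. Hk2 lost its call without the NC library of either line (highest adjusted p = 0.12).

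Lactate handling and several hypoxia targets were higher too. Ldha, which makes lactate, measured 1495, 1160 and 960 CPM in pre2-2 and 2548, 1959 and 1659 CPM in pre3 (0.77 ± 0.07, adjusted p = 3.13e-09). Slc16a3, the lactate exporter, measured 83.6, 56.7 and 50.1 CPM in pre2-2 and 252, 194 and 130 CPM in pre3 (1.58 ± 0.12, adjusted p = 1.02e-10). Within each line both fell in the order NT, NC and siTet1. Ndrg1, a hypoxia and stress gene, measured 73.1, 73.4 and 96.5 CPM in pre2-2 and 380, 308 and 356 CPM in pre3 (2.11 ± 0.11, adjusted p = 2.94e-13). Egln3, the prolyl hydroxylase that marks Hif1a for degradation and is itself induced by it, measured 78.9, 64.8 and 97.9 CPM in pre2-2 and 283, 204 and 250 CPM in pre3 (1.62 ± 0.12, adjusted p = 4.50e-11). No pre2-2 library reached the lowest pre3 library in either gene. Bnip3 (1.48 ± 0.14), Ankrd37 (1.90 ± 0.22), Vegfa (0.58 ± 0.15) and Egln1 (0.88 ± 0.13) were higher, and Hif1a itself did not pass (-0.05 ± 0.12). Vegfa lost its call without the NT library of either line (highest adjusted p = 0.0903).

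Hypoxia-inducible factors bind the core ACGTG. It was found, on either strand, in the 250 bases before a start in 19 of 30 tested members with a promoter (63.3%), against 25.9% of tested genes (any of a gene's annotated starts) and 16.6% of all promoters. The 2 called members with the smallest p that held it are shown with the core in capitals. The Egln3 window is chr12:54204024-54204124 on the minus strand, 250 to 150 bases before an annotated start, and the Slc16a3 window is chr11:120948966-120949066 on the plus strand, 101 to 1 bases before one.
Egln3: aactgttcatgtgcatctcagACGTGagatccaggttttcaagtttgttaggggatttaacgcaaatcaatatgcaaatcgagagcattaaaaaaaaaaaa
Slc16a3: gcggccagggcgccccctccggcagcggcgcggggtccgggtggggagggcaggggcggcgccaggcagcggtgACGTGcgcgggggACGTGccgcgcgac

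**Figure D5:**
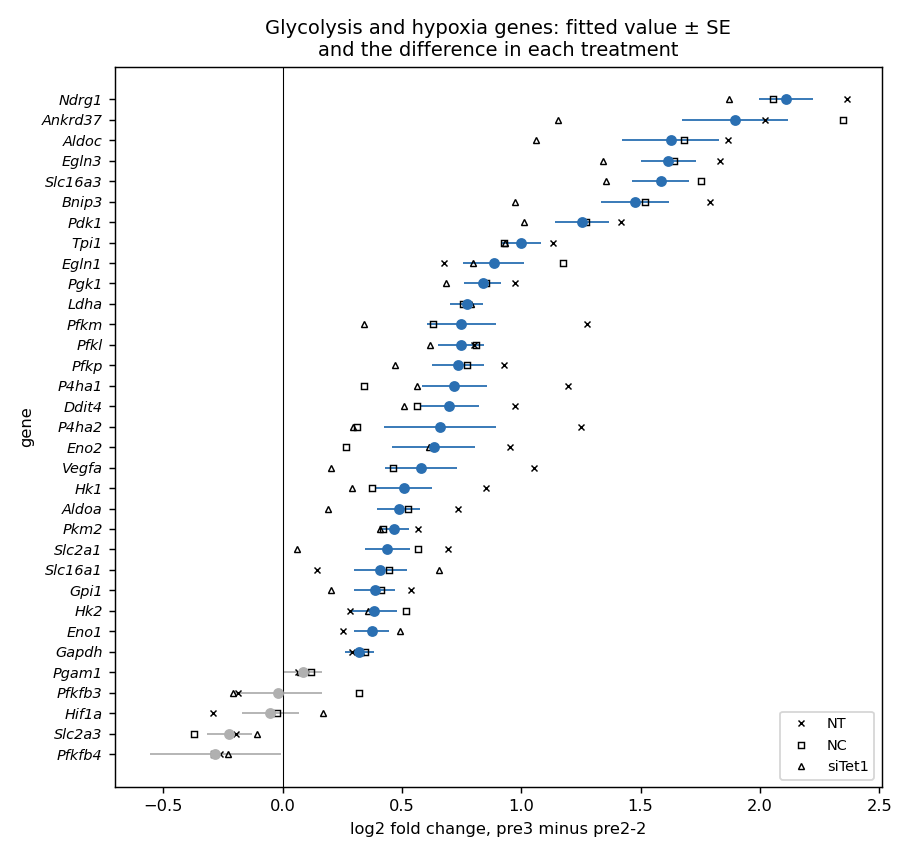
Fitted log2 fold change of pre3 over pre2-2 with its SE (large points, blue where called, grey where not) and the difference in the NT, NC and siTet1 pairs (small symbols) for the 33 glycolysis and hypoxia genes tested. The fitted value is above 0 in every called gene, from 0.32 for Gapdh to 2.11 for Ndrg1.

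Biosynthetic lists were higher by smaller amounts. Of 26 sterol and fatty acid synthesis genes, 14 were higher and none lower (median 0.41). Insig1, which holds the sterol-sensing complex in the endoplasmic reticulum, measured 91.7, 83.0 and 96.0 CPM in pre2-2 and 200, 172 and 198 CPM in pre3 (1.07 ± 0.11, adjusted p = 2.63e-08). Its libraries did not overlap between lines, and the desaturases Scd1 (0.69 ± 0.10) and Scd2 (0.83 ± 0.08) and the acetyl-CoA synthetase Acss2 (1.22 ± 0.17) were higher as well. Of 28 serine and amino acid synthesis genes, 12 were higher and 2 lower, but 6 were higher without the block and 5 without the NC library of either line. Phgdh, the first enzyme of serine synthesis, measured 259, 226 and 170 CPM in pre2-2 and 406, 357 and 345 CPM in pre3 (0.77 ± 0.10, adjusted p = 1.27e-06), and the arginine and lysine carrier Slc7a3 was lower by -0.95 ± 0.10.

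Of 74 cytosolic ribosomal protein genes tested, 49 were higher in pre3 and none lower, with a median of 0.25 and none at 2-fold. Rpl3 measured 2163, 1829 and 1866 CPM in pre2-2 and 3095, 2503 and 2525 CPM in pre3 (0.47 ± 0.07, adjusted p = 3.78e-06), and Rpl22 differed by 0.48 ± 0.09. The count depended on the model: 8 were higher without the block, 12 to 21 without the NC or siTet1 library of either line, and 61 or 62 without an untransfected library. Of 30 mitosis genes 13 were higher and none lower (median 0.29, and 0.09 in the NT pair against 0.35 and 0.41 in the NC and siTet1 pairs). Top2a, which untangles chromosomes, measured 654, 517 and 449 CPM in pre2-2 and 845, 775 and 672 CPM in pre3 (0.51 ± 0.08), and Mki67, a marker of cycling cells, differed by 0.48 ± 0.08 with overlap. In this list 4 were higher without the block or without the NC or siTet1 library of either line, and 20 without an untransfected library. Of 33 DNA replication genes 6 were higher and 1 lower, and of 45 respiratory chain genes 5 were higher and none lower, against a background of 14.4%. The replication count was 12 higher without the NT library of either line, 3 without the NC library and 2 without the block, and the respiratory chain count was 1 without the NC library and 2 without the siTet1 library or the block.

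Antioxidant and detoxification genes split, with 12 of 31 lower and 7 higher (median -0.04). Nqo1 (-1.45 ± 0.20), Srxn1 (-1.08 ± 0.19) and Txnrd1 (-0.67 ± 0.09) were lower. Hmox1, the heme oxygenase, was higher: its log2 difference was 1.04 ± 0.14 (adjusted p = 4.11e-06). Gpx4, which repairs lipid peroxides, was higher by 0.64 ± 0.10. Of 27 p53 targets and cell-cycle inhibitors, 9 were higher (33.3%, background 14.4%). Only 4 were lower (background 15.8%), and 2 without the NC library of either line. Of the higher genes, Phlda3, Cdkn1b and Rb1 lost their calls without the block or without the NC or siTet1 library of either line. The proapoptotic gene Bbc3 was higher by 1.42 ± 0.16 and Cdkn2a by 0.50 ± 0.13, Cdkn2b was lower by -1.15 ± 0.21, and Cdkn1a did not pass (-0.03 ± 0.09). Cdkn2a lost its call without the siTet1 library of either line (highest adjusted p = 0.0721).

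Developmental regulators went both ways. Hox genes encode position along the body axis. Of 19 tested, 4 were higher (21.1%, background 14.4%) and 2 lower (background 15.8%), with a median log2 difference of -0.04. Only 2 were higher without the block or without the NT or NC library of either line, and 1 was lower without the siTet1 library. Hoxd9 measured 3.11, 1.01 and 3.75 CPM in pre2-2 and 21.6, 19.2 and 18.6 CPM in pre3 (2.87 ± 0.36, adjusted p = 6.87e-07), and Hoxd8 differed by 2.38 ± 0.44 in the same direction. Hoxb9 measured 7.77, 15.2 and 17.3 CPM in pre2-2 and 1.54, 3.73 and 3.19 CPM in pre3 (-2.23 ± 0.39). All 3 genes were separate between the lines. Of 18 limb, axial and craniofacial factors tested, 7 were higher and 6 lower, with 3 lower without the block or the siTet1 library of either line. Barx1, a homeobox gene of the jaw and stomach, measured 0.777, 0.506 and 0.469 CPM in pre2-2, below the level of 3 counts, and 26.2, 21.9 and 17.6 CPM in pre3 (adjusted p = 1.97e-09). Tbx15 was lower, at 142, 135 and 143 CPM in pre2-2 and 53.4, 58.6 and 63.8 CPM in pre3 (-1.26 ± 0.12).

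Neural genes were lower in 9 of 16 tested and higher in 4, and the summed CPM of 37 neural markers spanned 1900 to 2031 in pre2-2 and 1284 to 1410 in pre3. Nefl, the neurofilament light chain, measured 192, 156 and 186 CPM in pre2-2 and 15.4, 21.3 and 21.3 CPM in pre3 (-3.20 ± 0.15, adjusted p = 3.49e-14), and the neuronal tubulin Tubb3 differed by -2.73 ± 0.16. Sox1, a neural progenitor factor, had 2 counts over the pre2-2 libraries and 39 over those of pre3 (ratio 22.7, exact 95% counting interval 5.88 to 194), and Pax6 was higher by 1.01 ± 0.24, a call that ended without the siTet1 library of either line (highest adjusted p = 0.0603). In Hedgehog signalling the pathway target Gli1 was lower: it measured 52.5, 43.0 and 38.4 CPM in pre2-2 and 7.18, 9.60 and 10.1 CPM in pre3 (-2.31 ± 0.22). The receptor Smo was higher by 0.72 ± 0.12. Among Notch genes the ligands Jag2 (1.69 ± 0.14) and Dll1 (2.06 ± 0.58) were higher and the receptor Notch2 (-0.76 ± 0.12) was lower. Crabp2, a carrier of retinoic acid into the nucleus, measured 94.1, 77.0 and 113 CPM in pre2-2 and 488, 282 and 328 CPM in pre3 (1.94 ± 0.12, adjusted p = 8.18e-12), and its receptor Rxra was higher by 1.34 ± 0.19.

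Of 30 imprinted genes tested, 9 were lower and 1 higher, 8 of the 9 by at least 2-fold. Peg10, a paternally expressed gene of retroviral origin needed in the placenta, measured 50.5, 144 and 451 CPM in pre2-2 and 2.05, 11.2 and 17.6 CPM in pre3 (-4.34 ± 0.18, adjusted p = 3.89e-15). The growth factor Igf2 differed by -1.29 ± 0.11 and Mest, another paternally expressed gene, by -1.55 ± 0.17. None of the 3 overlapped. Dlk1 (-2.29 ± 0.34), Plagl1 (-2.38 ± 0.35), Nnat (-2.14 ± 0.44) and Slc38a4 (-2.72 ± 0.42) were lower, and Peg3 was higher by 0.67 ± 0.13. Among DNA methylation genes 5 of 20 were higher (25%, background 14.4%) and 2 lower (background 15.8%). The de novo methyltransferase Dnmt3b differed by -0.72 ± 0.17 and the maintenance enzyme Dnmt1 by 0.33 ± 0.09. The Dnmt1 call ended without the NC or siTet1 library of either line (highest adjusted p = 0.178). Of 36 Polycomb and histone demethylase genes 5 were higher (13.9%, background 14.4%) and 4 lower (background 15.8%), with a median log2 difference of 0.05. Higher genes numbered 1 of the DNA methylation list and 2 of this list without the block, and 2 of each without the NC library and 3 of each without the siTet1 library of either line.

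Single genes with the widest separation included several that were near 0 in 1 line. Mgat4c, a glycosyltransferase gene, measured 33.8, 93.2 and 85.3 CPM in pre2-2 and had 1 count over the pre3 libraries (453 counts against 1, ratio 389, exact 95% counting interval 69.4 to 15400). Dnahc2, a dynein heavy chain of cilia, had 1 count over the pre2-2 libraries and measured 47.2, 35.7 and 24.5 CPM in pre3 (ratio 239, interval 42.4 to 9480). Avil, an actin regulator, had no count in pre2-2 and 15.9, 13.9 and 5.32 CPM in pre3, at least 26.2-fold higher when set against 3 counts summed over pre2-2. Isyna1, which makes inositol, measured 8.55, 10.6 and 15.5 CPM in pre2-2 and 91.3, 88.5 and 88.3 CPM in pre3 (2.97 ± 0.18). Cpe, a peptide processing enzyme, was lower by -2.02 ± 0.11 and the creatine kinase Ckb by -2.24 ± 0.11.

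Whether the line difference itself changed with transfection was tested as the product of line and transfection, with the NC and siTet1 libraries of a line as 1 group. It passed for 1 of 11042 genes (0.00906%), Amd2, which shares 85.7% of its 50-base words with Amd1 and is therefore uncertain, and 603 genes had an unadjusted p under 0.05. Each line had 1 untransfected library, and no mesenchymal or contractile gene passed this test.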

How the data were processed

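Both the members and the gene lists were chosen with earlier results of these data known. The authors deposited RSEM estimated counts per gene (expected count, version 1.1.21, mouse build mm9, per the submitters' processing notes) and a fraction of transcripts per gene, which was rescaled to TPM and used for ranks. Expected counts were rounded, 11 Y-linked genes were left out and 11042 of 20325 genes passed filterByExpr (minimum count 10, by treatment). The comparison used edgeR 4.0.16 in R 4.3.3 (TMM, quasi-likelihood test, treatment and line as terms, 2 residual degrees of freedom), with limma 3.58.1 and DESeq2 1.42.0 as alternatives. It was tested on simulated data. Treatment stood as the block because the lines were matched by treatment. Deviations from the line mean correlated at 0.289, 0.251 and 0.380 in the NT, NC and siTet1 pairs, against -0.303 to 0.0218 between treatments. The 3 deviations of a line cancel out, so positive same-treatment values push the others down and this contrast is partly built in. With 3 against 3 libraries an exact permutation test of a single gene that ignores the pairing cannot fall below 0.10. Swapping the lines only within the 3 treatment pairs sets a higher limit, so adjusted p-values come from the model across genes.

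A TPM table covering every sample was not used. Named genes were the 15 largest differences per direction (called, not overlapping, the same sign in all 3 treatments, at least 10 CPM in the higher line), up to 6 called members per list with the largest difference, defining members of each list, the 10 smallest p per direction and up to 10 per direction passing the product test; other list members were named after their values were seen to complete a pathway or a count. Alternatives were other scalings, filters, models, thresholds and sets of libraries. Values after ± are standard errors of the log2 fold change. Counting intervals and levels of 3 counts cover counting error only. Strand of counting is not given in the sources used here, so genes that overlap on opposite strands cannot be told apart. RefSeq promoter sequences are of another build than the counts and were joined by symbol. Results for some genes are not reported here.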

Additional observations from a re-analysis of the deposited data

Results flagged for a closer look

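Amd2, which encodes a copy of S-adenosylmethionine decarboxylase, was the gene whose line difference changed between untransfected and transfected libraries (product -8.33 on the log2 scale, edgeR adjusted p = 0.000361). It measured 0.389, 203 and 162 CPM in the NT, NC and siTet1 libraries of pre2-2 and 199, 247 and 254 CPM in those of pre3, so 1 library, pre2-2 NT, set the value. Amd2 shares 85.7% of its 50-base words with Amd1, which measured 233, 0 and 38.4 CPM in pre2-2 and 36.4, 0 and 0 CPM in pre3. Their sum was 234, 203 and 200 CPM in pre2-2 and 235, 247 and 254 CPM in pre3, without the low value.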

How the results depend on the processing

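The share of called genes higher in pre3 was 47.6% and lay between 44.3% and 48.1% under other scalings, filters and left-out libraries. The paired and unpaired fits differed in number: with no replicate block, genes called higher in pre3 numbered 969 and genes called lower in pre3 1091, all among the 3333. DESeq2 called 584 higher and 844 lower, an edgeR test against a 1.5-fold change 294 and 642, and an adjusted p under 0.01 gave 1011 higher. Leaving out 1 library gave 963 to 1627 higher and 1191 to 1909 lower; the lowest counts came without the NC library of pre3 and of pre2-2. A left-out library takes its pair out of the fit, which alone lowers the number of samples. Of 295 named genes called, 170 kept their call in every alternative. The product test called 0 genes with limma-voom. Some genes that were not called changed sign. Over the fits without 1 library, Cdkn1a ranged from -0.1298 to 0.0678, Col4a1 from -0.3475 to 0.0748, Crabp1 from -0.3222 to 0.0189, Ezh2 from -0.033 to 0.1212, Fgfr1 from -0.0215 to 0.2025, H2-K1 from -0.3907 to 0.2699, Itga6 from -0.086 to 0.0551, Tet1 from -0.1393 to 0.0313 and Zeb1 from -0.1217 to 0.3868. With the 4 transfected libraries Fgfr1 was -0.0194, Tet1 0.0313 and Zeb1 -0.1197. Among genes at an average log2 CPM of at least 5, the chromosome median moved to 0.0311 on 15, 0.009 on 18, 0.0159 on 2, -0.02 on 3, 0.0033 on 5, 0.0283 on 8 and 0.0309 on X. The cause of these shifts was not tested. Depth limits genes near 3 counts in a library.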

Other observations

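Endothelial genes and fat, cartilage and bone genes were counted in lists of their own. Their median log2 differences were -1.15 and -1.24, beside -1.23 for the mesenchymal transition list. Whether they moved apart from the programs described above was not tested. Of 9 endothelial genes tested, 5 were lower in pre3 and 2 higher: the receptor Tek differed by -1.34 ± 0.17 and Kdr by -3.19 ± 0.49, whereas the adhesion gene Esam was higher by 2.90 ± 0.37 (3.66 without the siTet1 library of pre2-2). The summed CPM of 20 endothelial markers was 167 to 214 in pre2-2 and 145 to 188 in pre3. All 6 fat, cartilage and bone genes tested were lower, against 3 without the block and 4 without the NC library of either line. The summed CPM of 22 such markers overlapped between lines, at 1136 to 2729 in pre2-2 and 557 to 1190 in pre3. Among the lower genes was Runx2, the bone regulator, at 18.7, 43.0 and 29.1 CPM in pre2-2 and 6.16, 6.93 and 5.85 CPM in pre3 (-2.22 ± 0.26). Of 9 trophectoderm genes tested, 3 were higher and 3 lower. Rhox6, an X-linked homeobox gene of the placenta and germ line, measured 0.389, 0 and 5.62 CPM in pre2-2 and 11.3, 6.40 and 47.4 CPM in pre3, and shares 16.5% of its 50-base words with Rhox9.

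The median line difference by chromosome lay between -0.0472 (chromosome 3) and 0.0506 (chromosome 17) on the log2 scale.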
